A study of Mus musculus with 4 samples.

Results

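The 6 genes described here are Lyz1, Ang4, Itln1, Defa17, Defa24 and Defa30, chosen by their symbols among the 32285 genes of a single-cell count table of mouse small intestine. They encode products that Paneth cells store in granules and release into the crypt. Their UMIs (unique molecular identifiers, each counting 1 captured RNA molecule) were read in Paneth, goblet, stem, enterocyte and immune cells, set apart by other marker genes, and in the remaining droplets.

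Male C57BL/6J mice were given a high-fat diet that also held l-NAME, which blocks nitric oxide synthases. The IPA group had 562.5 mg of 3-indolepropionic acid per kg of that diet, and the CON group had the same diet and l-NAME as control, so that both groups carried the fat and the inhibitor. The mice were 8 weeks old when the diets started and 15 weeks old at dissection, after 7 weeks of feeding. Each group has 2 samples, and each sample is a pool of 2 mice. Peyer's patches were removed, the epithelial layer between ileum and jejunum was released with EDTA and DTT, and DAPI- live cells were sorted before droplet capture.

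All 4 samples were deposited in 1 table, whose barcodes end in a number from 1 to 4. No label ties that number to a sample, so values are given for libraries 1 to 4 and no comparison of IPA with CON was made. The libraries held 11558, 11987, 11775 and 8957 barcodes with 183971338, 209357877, 178052389 and 173564399 UMIs. Of 44277 barcodes, 25788 had at least 500 UMIs, at least 250 genes and at most 25% mitochondrial UMIs, and the median of these held 22601 to 27622 UMIs by library. T cells numbered 283 and 1127 in libraries 1 and 3, against 4 and 5 in libraries 2 and 4. In passing barcodes, 75 barcode sequences occurred in more than 1 library, and none of these was a Paneth-gated cell.

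Paneth cells sit at the base of small intestinal crypts, between the stem cells, and secrete antimicrobial proteins. Lyz1 encodes lysozyme, which cuts peptidoglycan of bacterial walls. Ang4 encodes an angiogenin-family ribonuclease with bactericidal activity, and Itln1 encodes intelectin, a lectin that binds microbial glycans. Defa17, Defa24 and Defa30 encode alpha-defensins, also called cryptdins in mice, small cationic peptides with a cysteine-paired fold. They are made as precursors that matrilysin, the product of Mmp7, cuts into the active form. The myeloid lysozyme of macrophages comes from the neighbouring gene Lyz2.

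In GRCm38 the alpha-defensin members lie on the plus strand of chromosome 8, with Defa30 at chr8:21134642-21135598, Defa17 at chr8:21655780-21656735 and Defa24 at chr8:21734494-21735471. Each is protein coding, with 2 exons. Lyz1 lies on the minus strand at chr10:117287797-117292868 with 4 exons. Ang4 lies on the minus strand at chr14:51763878-51773590 with 2 exons, and Itln1 on the minus strand at chr1:171518122-171535294 with 8 exons.

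The coding sequences of the 3 alpha-defensins, from the GENCODE annotation of GRCm38 and without the stop codon, are shown because several results below turn on telling them apart. Capitals mark the positions at which the 3 differ.
Defa24: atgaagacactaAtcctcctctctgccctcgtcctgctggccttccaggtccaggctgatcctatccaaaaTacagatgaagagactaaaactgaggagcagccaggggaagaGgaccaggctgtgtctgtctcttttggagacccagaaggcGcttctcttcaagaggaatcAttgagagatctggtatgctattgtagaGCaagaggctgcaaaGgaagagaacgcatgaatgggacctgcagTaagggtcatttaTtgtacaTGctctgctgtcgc
Defa30: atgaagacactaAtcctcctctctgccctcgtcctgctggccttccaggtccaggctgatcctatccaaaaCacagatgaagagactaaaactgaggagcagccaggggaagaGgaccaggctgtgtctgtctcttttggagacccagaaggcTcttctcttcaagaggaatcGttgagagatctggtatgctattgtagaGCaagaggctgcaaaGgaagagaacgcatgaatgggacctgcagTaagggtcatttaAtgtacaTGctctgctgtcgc
Defa17: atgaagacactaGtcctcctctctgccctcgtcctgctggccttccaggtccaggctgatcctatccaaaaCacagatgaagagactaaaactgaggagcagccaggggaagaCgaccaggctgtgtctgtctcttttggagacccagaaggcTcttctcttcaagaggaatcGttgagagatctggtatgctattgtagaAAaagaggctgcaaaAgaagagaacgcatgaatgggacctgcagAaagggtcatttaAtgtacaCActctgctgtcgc
Of 279 coding bases, 12 differed among the 3 genes, and 8 of these lay in the last 107 bases, the coding part of the last exon. Defa24 and Defa30 differed at 4 bases, Defa17 and Defa30 at 8, and Defa17 and Defa24 at 12. A stretch of 50 bases of the transcript, untranslated ends included, occurred in no other annotated transcript for 71.9% of start positions in Defa24 and for 47.6% in Defa30. In Defa17 that share was 8.05%, since 320 of its 348 stretches also occurred in Defa3. Defa17 counts therefore depend on how the authors' counting assigned shared reads. The shares were 83.9% in Lyz1, with the other stretches all shared with Lyz2, 95.3% in Ang4 and 99.0% in Itln1.

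Upstream sequence from RefSeq was used for 4 of the 6 members (Lyz1, Ang4, Itln1 and Defa30). The 150 bases before the Defa30 start, chr8:21134500-21134649 on the plus strand of GRCm38.p6, are shown with TATAAA and TCAAAG, the reverse of CTTTGA on the other strand, in capitals. CTTTGA is the core that TCF factors of the Wnt pathway are known to bind.
Defa30 promoter: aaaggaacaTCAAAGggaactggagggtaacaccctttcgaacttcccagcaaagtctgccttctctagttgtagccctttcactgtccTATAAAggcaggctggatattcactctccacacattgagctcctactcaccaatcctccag
In windows of 250 bases before the start and 50 after it, searched on both strands, TATAAA was found in 11 of 12 alpha-defensin promoters and CTTTGA in 12 of 12. Among all 32851 promoters of the same length, 12.4% held TATAAA and 13.8% held CTTTGA. The 12 belong to related genes and are not independent cases. In Defa21, Defa22, Defa2 and Defa20 TATAAA began 31 bases before the start and CTTTGA 111 and 71. Defa37, with 0 UMIs in the Paneth-gated cells described below, also held both. In Defa30 the matches began 61 and 141 bases before the start. Neither sequence, nor CAGCTG (in 13.0% of all promoters), was found in the windows of Lyz1, Ang4 and Itln1. These matches describe the letters of the windows and do not show binding.

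Paneth cells were gated on 6 marker genes that are neither members nor defensins (Mmp7, Mptx2, Mptx1, Habp2, Pnliprp2 and Clps), at 20 or more summed UMIs per 10000 and at least 5000 UMIs in the cell. Goblet markers also had to be under 500 and enteroendocrine markers under 100 UMIs per 10000. Goblet-gated cells thus lay outside these limits whatever their Paneth score, also where other gates were allowed below. The limits were set after the scores had been seen. Inside the limits lay 98 barcodes, of which 12 also met the stem gate (8) or the enterocyte gate (4), leaving 86 Paneth-gated cells. Libraries 1 to 4 held 13, 38, 25 and 10 of them, 0.211%, 0.534%, 0.396% and 0.162% of passing barcodes. The exact 95% binomial intervals of these shares were 0.112 to 0.360%, 0.378 to 0.732%, 0.257 to 0.585% and 0.0776 to 0.297%, and cover counting error only. Only 3 cells lay within 5 score units above the limit, and 3 within 5 below it. The number of cells depended on the gate: the Leiden cluster (of a clustering without members and alpha-defensins) that had the marker score held 309 barcodes, 17, 88, 184 and 20 by library, with a median of 691 UMIs and 210 of them under 5000. With 66 barcodes under 5000 UMIs added that met the score, the count was 152. These 66 could also lie in 1 other gate, the goblet gate included.

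Of the 6 markers 5 were found in the gated cells of every library, with Mmp7 at 1017 to 1720 CPM (UMIs per 1000000 UMIs of the class) and Clps at 3340 to 5191 CPM over the 4 libraries. Mptx1 had 2 UMIs in all Paneth-gated cells together. Immune markers summed to 0 to 11.8 CPM in these cells, and goblet markers to 9041 to 9886 CPM, against 288184 to 416202 CPM in goblet-gated cells. Cells inside the goblet gate or an immune gate had been set apart, so these sums describe the gates. Paneth-gated cells were deep, with a median of 127827, 110472, 113940 and 106200 UMIs. Enterocyte-gated cells had medians of 26210 to 29758 UMIs.

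The members made up about as much of a Paneth-gated cell's RNA as all its other genes together. Their summed level was 473644, 503124, 545155 and 552005 CPM in libraries 1 to 4. All 28 alpha-defensin genes of the table, of which 3 are members, summed to 581443, 603342, 604668 and 612597 CPM. By these sums the libraries stood close together, and the median cell had 63.2% of its UMIs in alpha-defensins.

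Defa24 was the highest member, with 242758, 253726, 271068 and 269389 CPM in the Paneth-gated cells of libraries 1 to 4. UMIs tag the 3′ end of a transcript and were not divided by transcript length. Defa30 followed with 139530, 125199, 141211 and 123744 CPM. Defa17, the lowest alpha-defensin member, had 7693, 7291, 8433 and 5381 CPM. The shares of unique 50-base stretches ran in the same order, 71.9%, 47.6% and 8.05%. How far the counting of shared reads sets this order was not tested. Defa24 and Defa30 stayed within a narrow range over the libraries, and Defa17 was lowest in library 4.

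Lyz1 had 55128, 77913, 82894 and 100356 CPM in Paneth-gated cells, lowest in library 1 and highest in library 4. Itln1 had 22260, 30897, 33804 and 39485 CPM, in the same order of libraries. Ang4 had 6274, 8098, 7744 and 13650 CPM, again lowest in library 1 and highest in library 4. Itln1 and Lyz1 kept a nearly fixed ratio, with Itln1 at 28.8%, 28.4%, 29.0% and 28.2% of the 2 genes' summed UMIs. With 1 pool per library these differences have no replicate check, and the counting intervals are far narrower than the differences between libraries.

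Single cells varied more than the library sums. Defa24 held 0.0432 to 41.9% of a Paneth-gated cell's UMIs, with a median of 26.8%, and Defa30 held 0 to 27.7%, with a median of 12.8%. Lyz1 held 0.732 to 14.3%, median 7.94%, and Itln1 0 to 7.81%, median 3.33%. These 4 genes were thus major transcripts of nearly every gated cell. Ang4 held 0.00665 to 1.80%, with a median of 0.796%. Defa17 held 0 to 2.42%, median 0.692%.

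**Figure D1:**
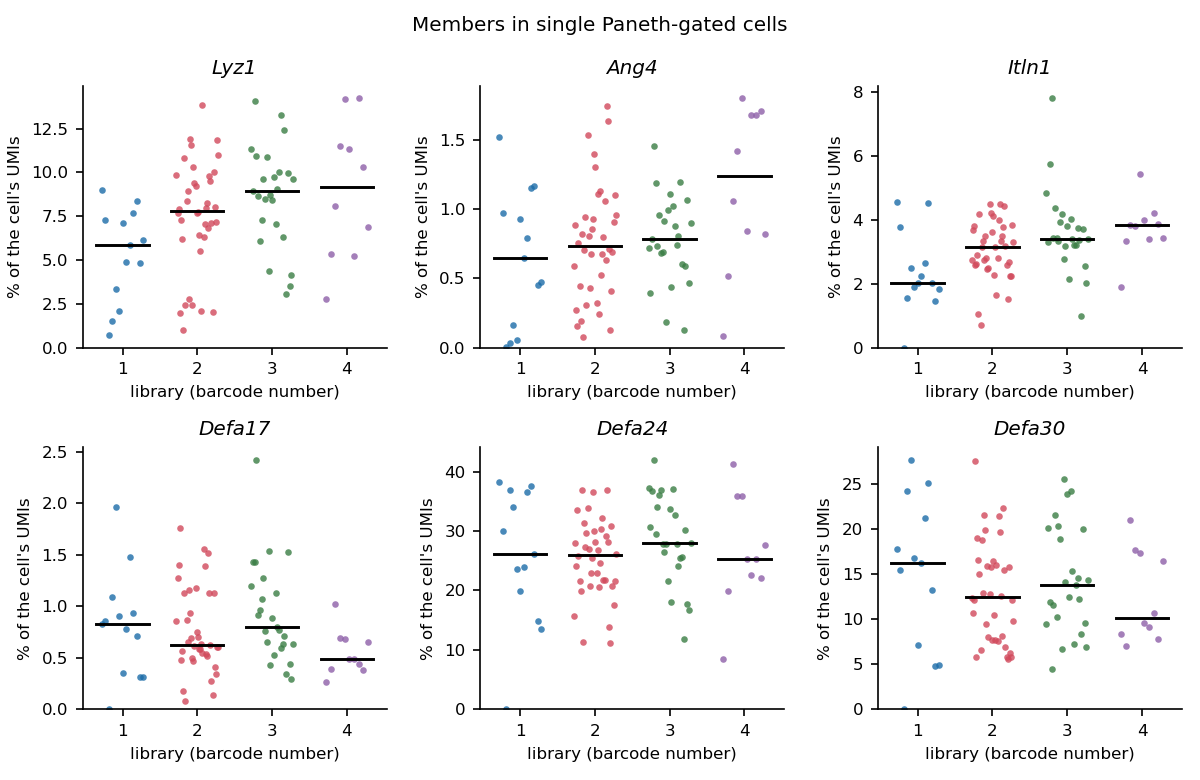
Share of each Paneth-gated cell's UMIs (y axis, percent, scale differs by panel) taken by each member, by library (x axis); points are cells (13, 38, 25 and 10 in libraries 1 to 4) and bars are medians. Defa24 reaches 41.9% and Lyz1 14.3% of a cell's UMIs, and the medians of Lyz1, Ang4 and Itln1 are lowest in library 1 and highest in library 4.

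A single gated cell stood apart. It lay in library 1, had 30069 UMIs and had 16 alpha-defensin UMIs, with 220 for Lyz1, 68 for Mmp7, 13 for Defa24, 2 for Ang4 and 0 for Itln1, Defa17 and Defa30. In the other 85 cells alpha-defensins took at least 21.0% of UMIs. Without that cell the summed level of the members over all libraries was 518186 CPM, against 516505 CPM with it.

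Across cells the members' shares ran together to different degrees by pair and library. Spearman's rho of Defa17 with Defa24, as shares of UMIs, was 0.72, 0.79, 0.84 and 0.98 over 12, 38, 25 and 10 cells, the cell above left out. Defa24 with Defa30 gave 0.82, 0.52, 0.27 and 0.95. Itln1 with Defa24 gave 0.68, 0.65, 0.77 and 0.50, about as high as some pairs of defensins, and Itln1 with Lyz1 gave 0.62, 0.44, 0.36 and 0.90. Lyz1 with Defa30 gave -0.18, -0.16, -0.25 and 0.49. Lyz1 with Ang4 gave 0.98, 0.64, 0.02 and 0.67. The shares of 1 cell have 1 total in common, and over UMIs that are no alpha-defensin Lyz1 with Ang4 gave 0.97, 0.83, 0.52 and 0.90 and Lyz1 with Defa30 gave 0.38, 0.41, 0.43 and 0.85. These values describe the cells of each pool and carry no test.

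Paneth-gated cells were of different kinds by their defensin mixture. Defa21 and Defa22, 2 alpha-defensins that differ from each other at 2 of 279 coding bases and from Defa30 at 57 and 55, took under 1% of alpha-defensin UMIs in 36 of 85 cells and 10% or more in 34, and up to 36.8%. The other 15 cells lay between. Cells of both kinds occurred in every library, with 5, 14, 10 and 5 cells at 10% or more and 6, 14, 14 and 2 under 1% in libraries 1 to 4. The limits were chosen after the values had been seen.

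Defa30 was lower in the cells rich in Defa21 and Defa22 in each library. Its median share of UMIs was 7.15%, 7.86%, 12.3% and 9.07% in cells with 10% or more, against 22.7%, 15.9%, 17.7% and 12.4% in cells under 1%. Defa17 was also lower in each library, only slightly in libraries 2 and 4, with 0.352%, 0.592%, 0.612% and 0.436% against 1.01%, 0.641%, 1.16% and 0.456%. Ang4 ran the other way, with medians of 0.925%, 1.01%, 0.858% and 1.68% against 0.404%, 0.418%, 0.737% and 0.451%. Lyz1 was higher in the cells rich in Defa21 and Defa22 in libraries 1, 2 and 4 and slightly lower in library 3, with 7.12%, 8.81%, 8.68% and 10.3% against 4.13%, 4.47%, 8.99% and 4.83%. Itln1 had no common direction, with 2.01%, 3.17%, 3.29% and 3.89% against 2.38%, 2.71%, 3.58% and 2.68%. Shares of a fixed total are bound to each other, and cells of 1 pool are not replicates, so no test is given.

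**Figure D2:**
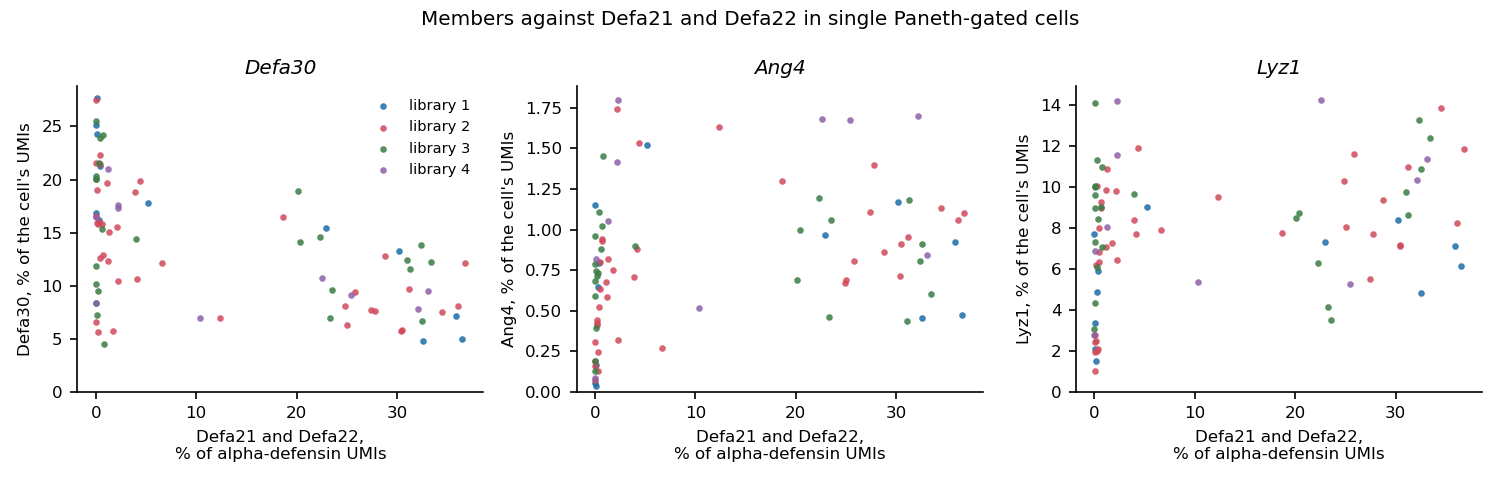
Share of a Paneth-gated cell's UMIs taken by Defa30, Ang4 and Lyz1 (y axes, percent) against the share of its alpha-defensin UMIs taken by Defa21 and Defa22 (x axis, percent), 1 point per cell, 85 cells, coloured by library. Cells gather under 1% (36 cells) and at 10% or more (34 cells), and Defa30 shares above 20% occur at the left of its panel.

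Outside Paneth-gated cells the members were counted in every large class, at levels far lower. All 6 members were at least 4-fold higher in Paneth-gated than in enterocyte-gated cells in each of the 4 libraries, where 1.97% of 5725 genes tested were (113 genes, on log2(CPM + 1), among genes with a mean of at least 10 CPM over both classes). At 2-fold the share of all genes was 2.95%. The median log2 difference was 10.7 over the members and -1.65 over all genes tested. That last value moves with the total: with alpha-defensins left out of the CPM total it was -0.40, and genes at least 2-fold higher or lower in all 4 libraries numbered 410 and 1065, against 169 and 3464 with them in. Directions of genes near 0 below are therefore given with both totals. The gate did not use the members, but they are Paneth genes by definition, and this count describes the gate.

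Counts over other Paneth genes describe the filter as much as the genes. Of those tested, 18 of 20 other alpha-defensins, 3 of 4 regulators, 1 of 2 niche signals and, of the members, Ang4 and Defa17 had under 10 CPM in enterocyte-gated cells, passed through the Paneth-gated cells and had to be higher there. Of 25 other alpha-defensin genes, 20 passed the filter and all 20 were at least 4-fold higher in Paneth-gated cells in all 4 libraries, with a median log2 difference of 10.1. The other 5 (Defa25, Defa31, Defa2, Defa33 and Defa37) were under the filter. Of 7 fate and secretory regulators 4 were tested, and Sox9, Atoh1 and Spdef, transcription factors of the crypt secretory cells, were at least 4-fold higher. Their log2 differences over the libraries were 4.32 to 5.11 for Sox9, 2.08 to 5.13 for Atoh1 and 3.73 to 4.39 for Spdef. Xbp1, a regulator of the unfolded protein response, gave -1.13 to -0.55, and turned to 0.22 to 0.77 with alpha-defensins left out of the total.

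Of 9 other granule and secreted products 4 were tested, and none was 4-fold higher in all 4 libraries. Ang, a relative of Ang4, had a log2 difference of 1.52 to 2.03, and of 2.84 to 3.35, past 4-fold, with alpha-defensins left out of the total. Reg3a and Reg3b, antimicrobial C-type lectins, were lower in Paneth-gated cells with either total, at -5.89 to -4.07 and -5.68 to -2.54, and at -4.60 to -2.75 and -4.34 to -1.29 without alpha-defensins. Reg3g gave -2.02 to -0.36, and -0.69 to 0.89 without them. Of the niche signals Wnt3, a Wnt ligand for stem cells, was higher by 4.75 to 5.33, and Dll1, a Notch ligand, gave -2.03 to -0.34, and -0.93 to 0.97 without alpha-defensins in the total. Of 5 further listed genes (Atg16l1, Nod2, Lrrk2, Kcnn4 and Tcf4) only Tcf4 was tested. Despite its symbol, Tcf4 does not encode one of the TCF factors of the Wnt pathway named above. It gave -0.69 to -0.20, turning to 0.55 to 1.10 without alpha-defensins in the total. With alpha-defensins left out of the CPM total, 3.3% of the genes tested were 4-fold higher in place of 1.97%.

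Over 32 points (11 classes by library, classes with at least 10 cells) the members ran in parallel, with Pearson's r of log2(CPM + 1) between 0.890 (Lyz1 and Defa17) and 0.987 (Itln1 and Defa24). The points share libraries and the Paneth-gated points set much of r. Of 13521 genes at 10 CPM or more in some point, the members themselves left out, the 5 most like each member were all alpha-defensin rows, and AY761184 was among the 5 for every member but Ang4. Among non-members, Defa30 was closest to Gm14851 (r = 0.990) and Defa29 (0.982). AY761184 was the closest such gene to Lyz1 (0.954), Itln1 (0.965) and Defa24 (0.969), and of these Itln1 and Defa24 were closer to each other (0.987). Ang4 was closest to Defa26 (0.956) and Defa17 to Gm7861 (0.968). With log2(CPM + 10), 21 of the 30 names were the same.

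Goblet-gated cells, which make mucus, ranked next after Paneth-gated cells among the 4 large epithelial classes for most members and libraries. Defa24 had 3122, 5602, 8996 and 5736 CPM in the 199, 282, 202 and 159 goblet-gated cells. Lyz1 had 681, 1664, 2244 and 1537 CPM, and Itln1 370, 1008, 1489 and 627 CPM. These 3 genes were above the stem and enterocyte levels of the same library in all 4 libraries. Defa30 had 32.1, 908, 3265 and 1377 CPM, and in library 1 this was lower than in stem-gated cells. Ang4 had 20.4, 86.4, 452 and 277 CPM, and Defa17 29.1, 188, 265 and 35.8 CPM. In libraries 2 and 3, 2 goblet-gated cells each fell in the Leiden cluster of Paneth markers. Without those cells library 3 had 2263 CPM of Defa24, 915 of Lyz1, 404 of Itln1, 126 of Defa30, 191 of Ang4 and 65.1 of Defa17. Library 2 then had 1070 CPM of Lyz1, 414 of Defa30, 46.3 of Ang4 and 52.3 of Defa17.

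Stem-gated cells (160, 279, 263 and 99) had 486, 445, 1432 and 773 CPM of Defa24. Lyz1 had 206, 263, 296 and 258 CPM there, and Defa30 177, 215, 301 and 348 CPM. Ang4 had 16.3, 20.4, 33.2 and 23.7 CPM, and in library 1 its interval, 13.1 to 19.9 CPM, overlapped that of goblet-gated cells, 16.6 to 24.8 CPM.

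Enterocyte-gated cells (4590, 4546, 3366 and 5120), which are not known to make alpha-defensins, had 67.1, 179, 215 and 65.4 CPM of Defa24. Defa30 had 31.2, 78.7, 97.4 and 24.9 CPM there, Lyz1 34.4, 70.9, 73.9 and 36.7 CPM, and Itln1 28.4, 32.6, 45.6 and 27.0 CPM. Ang4 had 1.31, 4.31, 5.73 and 1.87 CPM and Defa17 3.07, 8.995, 12.1 and 3.13 CPM. For each member libraries 2 and 3 were above libraries 1 and 4, and these 2 libraries also had more Paneth-gated cells (38 and 25, against 13 and 10). Whether the number of Paneth cells sets this level was not tested.

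A Defa24 UMI was found in most enterocyte-gated cells, 67.4%, 89.2%, 94.2% and 69.1% by library. At an equal depth of 2000 UMIs per cell the shares were 14.8%, 24.4%, 30.3% and 12.3%. T cells of libraries 1 and 3, with 3659 and 3850 median UMIs, had a Defa24 UMI in 41.3% and 74.98% of cells, or 28.9% and 51.5% at 2000 UMIs, and 340 and 477 CPM. The members were thus counted in cells of lymphoid as of epithelial origin, so a member's UMI in a droplet does not mark a Paneth cell here. The goblet shares at 2000 UMIs were 36.1%, 50.7%, 50.4% and 41.3% for Defa24, and those of stem-gated cells 27.3%, 38.8%, 38.3% and 33.1%, and in library 3 neither was above the T cell share, while the goblet CPM was.

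**Figure D3:**
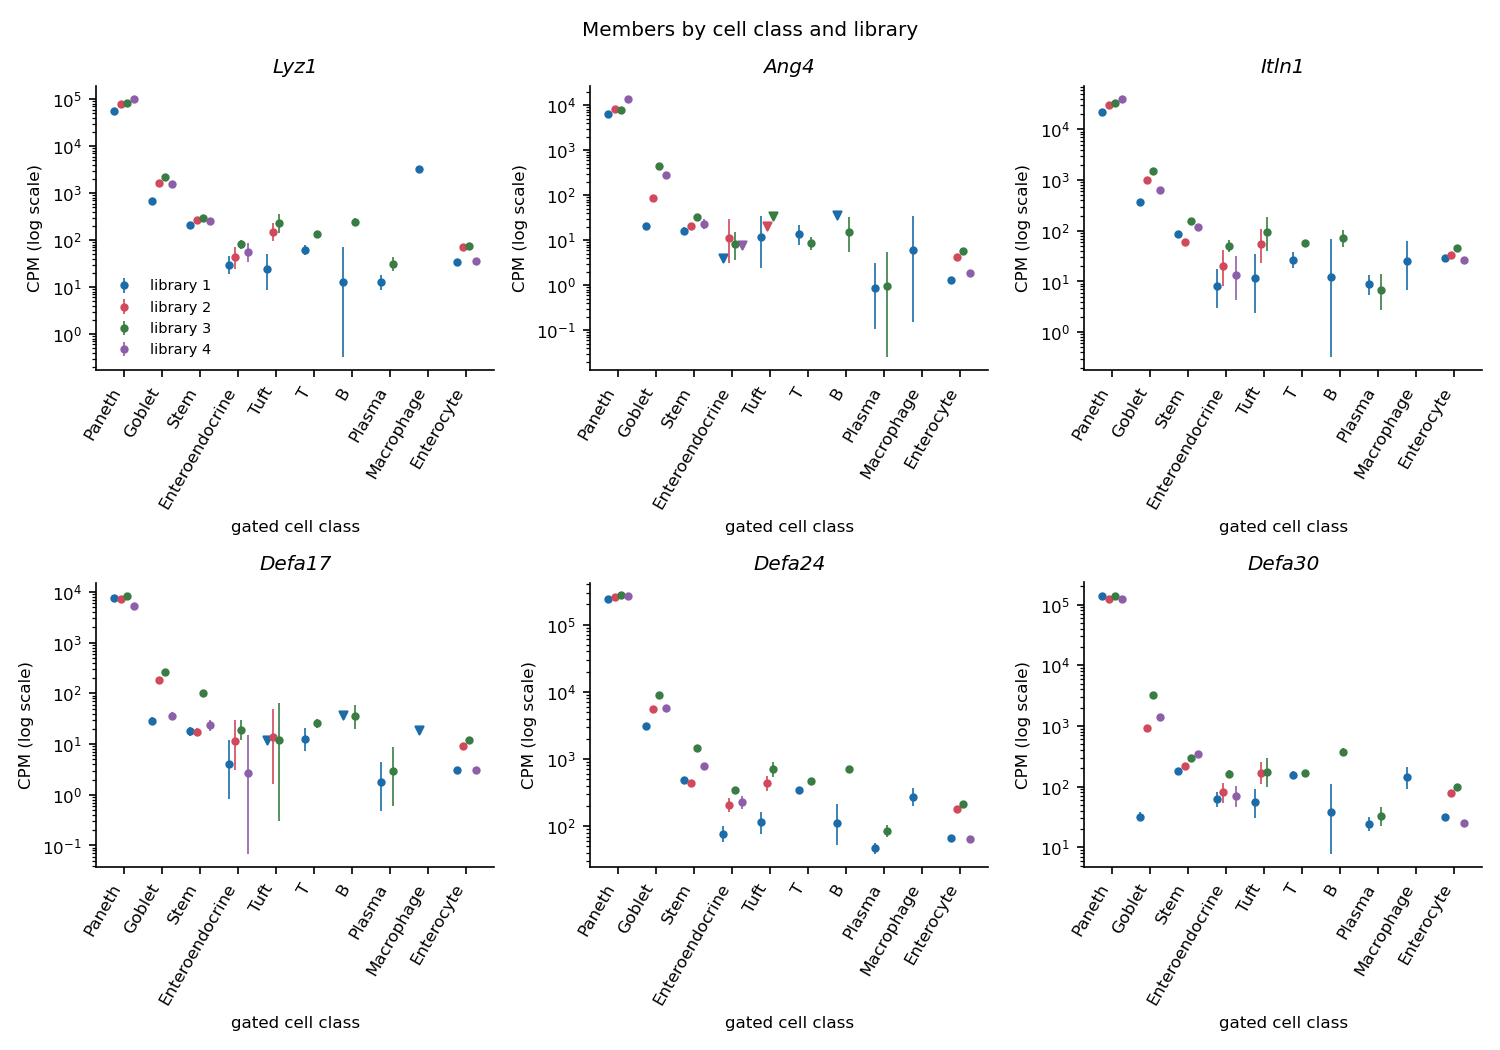
Level of each member (y axis, CPM, log scale) by gated class (x axis) and library (colour), for classes with at least 10 cells; bars are exact 95% Poisson intervals, which cover counting error only, and triangles mark the level of 3 counts where no UMI was found. Paneth-gated cells are highest for every member, goblet-gated cells spread most between libraries for Defa30 (32.1 to 3265 CPM), and enterocyte-gated cells lie at 215 CPM or lower.

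Most UMIs of the members nevertheless lay in the few Paneth-gated cells. Their share of the members' UMIs in passing barcodes was 92.4%, 88.5%, 84.7% and 80.1%. Goblet-gated cells held 2.83%, 2.35%, 4.51% and 5.23%, and enterocyte-gated cells 2.56%, 2.05%, 2.12% and 3.26%. Barcodes in more than 1 gate held 0.654%, 5.76%, 6.16% and 9.46%. With the 12 barcodes of the Paneth limits that met another gate added, the share over all libraries was 92.3%, against 86.8% without them.

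The ratio of Defa30 to Defa24 was read by class. Defa30 made up 36.5%, 33.0%, 34.3% and 31.5% of the 2 genes' UMIs in Paneth-gated cells. In enterocyte-gated cells it made up 31.8%, 30.6%, 31.2% and 27.6%. In T cells of libraries 1 and 3 it made up 31.1% and 26.3%, with exact binomial intervals of 27.3 to 35.03% and 24.7 to 27.9%. Both classes lay below the Paneth-gated cells of the same library, and T cells of library 3 lay furthest below.

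Goblet-gated cells departed further from that ratio in libraries 1, 2 and 4. Defa30 made up 1.02%, 13.95%, 26.6% and 19.4% of the 2 genes' UMIs there, with intervals of 0.867 to 1.19%, 13.6 to 14.3%, 26.3 to 27.0% and 18.9 to 19.9%. In all 4 libraries this was below the Paneth-gated value, and in library 3 it was about the T cell share. Over all libraries the goblet-gated share was lower than the Paneth-gated one by 14.7 percentage points. Stem-gated cells had 26.7%, 32.6%, 17.4% and 31.1%, and stood lowest in library 3.

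Cell by cell, most goblet-gated cells with Defa24 had little Defa30. At least 50 Defa24 UMIs were found in 34, 48, 30 and 23 goblet-gated cells, 135 of 842. In 121 of these (34, 41, 25 and 21) Defa30 made up under 5% of the 2 genes, and the median over the 135 was 0.300%. In 5 it made up 5 to 20%, and in 9 it made up 20% or more. Among 85 Paneth-gated cells with as many Defa24 UMIs none was under 5%, the range was 9.63 to 49.6% and the median 33.7%. Of 39 such stem-gated cells 6 were under 5%, and of 45 such enterocyte-gated cells 2 were. The 2 coding sequences printed above differ at 4 bases, and the 121 cells were nonetheless counted almost wholly as Defa24. The limits of 50 UMIs and 5% were chosen after the values had been seen.

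**Figure D4:**
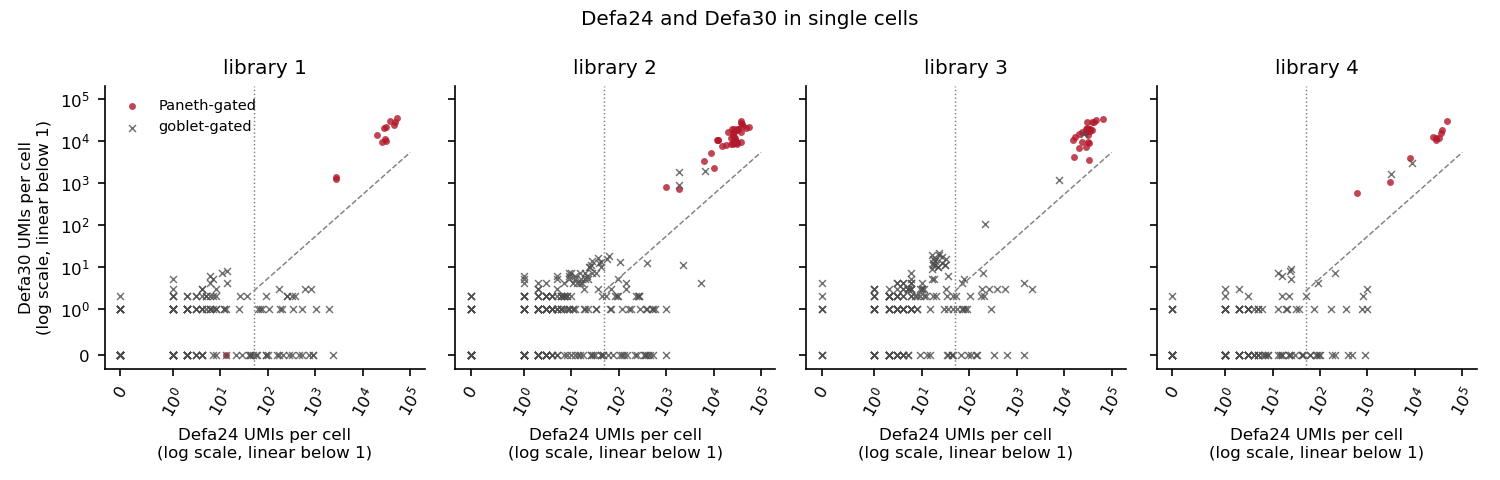
Defa30 UMIs (y axis) against Defa24 UMIs (x axis) in single Paneth-gated cells (circles) and goblet-gated cells (crosses), 1 panel per library, both axes logarithmic and linear below 1; the dotted line marks 50 Defa24 UMIs and the dashed line a Defa30 share of 5%. Below the dashed line and right of the dotted one lie 34, 41, 25 and 21 goblet-gated cells and no Paneth-gated cell, which apart from 1 cell in library 1 gather at the upper right.

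The 121 cells with Defa24 and little Defa30 also had more of other members than goblet-gated cells with at most 5 Defa24 UMIs (134, 165, 107 and 107 cells). Lyz1 had 1963, 3417, 3220 and 2616 CPM in the Defa24 cells, against 257, 333, 447 and 321 CPM. Itln1 had 1176, 2896, 1536 and 1471 CPM, against 62.3, 112, 74.3 and 74.8 CPM. Defa17 had 142, 152, 307 and 157 CPM, against 2.41, 7.02, 10.2 and 2.67 CPM. A few cells held much of this. Without the 2 highest cells of each gene in each library, a choice made after the values had been seen, Lyz1 had 1284, 1742, 1787 and 1712 CPM and Itln1 914, 1498, 1066 and 826 CPM in the Defa24 cells. Defa17 then had 56.4, 55.2, 26.6 and 9.70 CPM, and in library 4 a single cell held 67 of its 72 UMIs. Ang4 had 57.2, 82.9, 450.0 and 457 CPM, against 7.82, 34.0, 81.2 and 158 CPM. Without its 2 highest cells Ang4 had 29.4, 50.6, 309 and 226 CPM in the Defa24 cells. Defa30 had 30.7, 64.9, 49.0 and 50.1 CPM, against 21.95, 49.1, 58.0 and 16.9 CPM, and was lower in the Defa24 cells of library 3. Without its 2 highest cells Defa30 had 26.4, 45.7, 38.5 and 28.7 CPM there, and was then lower in libraries 2 and 3.

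The same cells had Muc2, the gel-forming mucin, at 15839, 12497, 9268 and 13564 CPM, against 17086, 15355, 18938 and 15270 CPM in the cells with at most 5 Defa24 UMIs, and so lower in each library. Of the 7 goblet markers of the gate 1, Spink4, was higher in the Defa24 cells in all 4 libraries. It had 21033, 25923, 22482.5 and 22517 CPM, against 13547, 15811, 10622 and 12579 CPM. Tff3, Fcgbp, Clca1 and Zg16 were lower in libraries 1 to 3 and higher in library 4, and Agr2 was lower in each library. Of the 6 Paneth markers of the gate 2, Mmp7 and Pnliprp2, were higher in the Defa24 cells in all 4 libraries, and of 8 stem markers 2 were, Cdca7 and Smoc2. The share of all genes higher in all 4 libraries is not given here. These counts of goblet, Paneth and stem markers therefore show no difference between the lists. Mmp7, which processes the defensins, had 365, 263, 199 and 274 CPM, against 36.4, 48.8, 11.6 and 35.2 CPM. Clps, the cofactor of pancreatic lipase, had 851, 691, 527 and 1106 CPM, against 598, 430, 569 and 473 CPM, lower in the Defa24 cells of library 3. Mptx1 had 42.4, 49.9, 51.5 and 97.9 CPM, against 8.72, 47.7, 266 and 54.3 CPM. Mptx2, a Paneth pentraxin, had 0, 0.999, 1.23 and 2.18 CPM, and 1820, 3971, 451 and 1511 CPM in Paneth-gated cells. Among the alpha-defensins that are not members, AY761184 had 123, 452, 35.6 and 56.6 CPM, against 4.81, 14.03, 11.6 and 1.34 CPM, and all others were at 30.5 CPM or lower. AY761184 was not split by cell, and few cells may hold much of it. In library 2, 1 cell had 5886 alpha-defensin UMIs, with 5382 for Defa24, 58 for Defa17, 4 for Defa30 and 0 for Defa21 and Defa22. In library 1, 1 cell had 2459, with 2358 for Defa24, 4 for Defa17 and 0 for Defa30, Defa21 and Defa22. Without the 6% of barcodes with the highest Scrublet doublet scores, 106 of the 121 were counted.

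The remaining 14 goblet-gated cells, with both defensins (0, 7, 5 and 2 by library), were themselves unlike. Of them 7 (0, 3, 2 and 2 by library), had 880 to 14501 Defa30 UMIs each and held 99.3% of the 14 cells' Defa30 UMIs, with 41549 CPM of Lyz1 and 5172 CPM of Muc2. The other 7 cells had 4 to 103 Defa30 UMIs, with 944 CPM of Lyz1 and 10870 CPM of Muc2. The limit of 500 Defa30 UMIs between them was chosen after the values had been seen. The goblet level of Defa30 rested on few cells, and the highest 5% of goblet-gated cells held 93.0%, 97.6% and 98.6% of its UMIs in libraries 2 to 4. The median depth of the 14 was 23487 UMIs, against 22450 over all goblet-gated cells. The part of doublets in them was not tested.

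Lyz1 and Itln1 departed from the Paneth ratio in the other direction. Lyz1 made up 52.4%, 47.4%, 43.1% and 59.6% of the summed UMIs of Lyz1 and Defa30 in enterocyte-gated cells, against 28.3%, 38.4%, 37.0% and 44.8% in Paneth-gated cells. Itln1 made up 47.6%, 29.3%, 31.9% and 52.0% of the sum with Defa30 there, against 13.8%, 19.8%, 19.3% and 24.2%. In T cells of libraries 1 and 3 Itln1 made up 14.8% and 25.1% of that sum, nearer to the Paneth value. Relative to Defa30, enterocyte-gated cells thus had more Lyz1 and Itln1 than Paneth-gated cells of the same library in all 4 libraries. In T cells of libraries 1 and 3 Lyz1 had 62.5 and 135 CPM. Its share of the sum with Defa30 is not given for T cells, so the Lyz1 excess is not shown to be particular to enterocyte-gated cells.

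Among macrophage-gated cells Lyz1 was concentrated in few cells. Other immune classes held Lyz1 UMIs too, spread over more cells. In library 3, 1127 T cells had 635 Lyz1 UMIs together, and the macrophage-gated cells had 4. Of 33 macrophage-gated cells (24, 0, 7 and 2), 20 had no Lyz1 UMI and 10 had 1 to 3. The remaining 3 had 520 Lyz1 and 761 Lyz2 UMIs (library 1), and 170 with 502 and 657 with 516 (library 4). Alpha-defensin UMIs in these 3 cells numbered 8, 0 and 3, so their Lyz1 came without the defensins that go with it in Paneth-gated cells. The 30 others had 13 Lyz1 and 1102 Lyz2 UMIs together, up to 319 Lyz2 in 1 cell. Paneth-gated cells had Lyz2 at 5.50, 6.16, 8.36 and 13.2 CPM, and Lyz1 made up 99.99% of the 2 lysozymes over each library. Lyz1 and Lyz2 differ at 22 of 444 coding bases, so reads could be split between them.

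**Figure D5:**
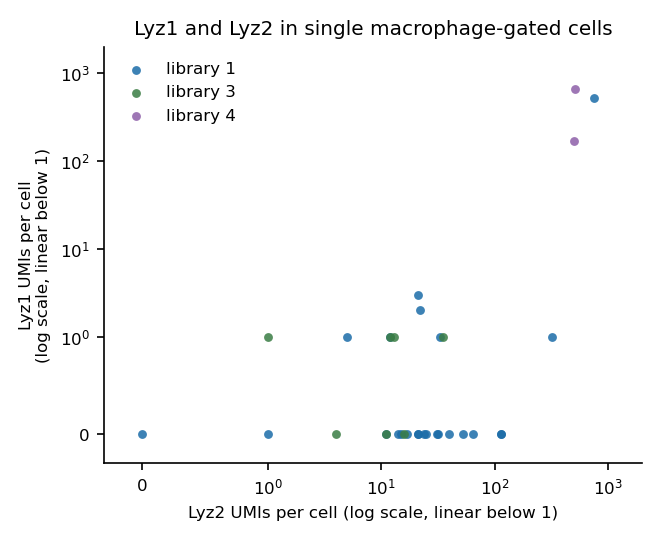
Lyz1 UMIs (y axis) against Lyz2 UMIs (x axis) in 33 single macrophage-gated cells, coloured by library, both axes logarithmic and linear below 1. The 3 cells at the upper right have 170 to 657 Lyz1 UMIs, and the 30 others have at most 3 at up to 319 Lyz2 UMIs.

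A further 66 barcodes (1, 25, 36 and 4) met the Paneth score with under 5000 UMIs and were kept apart. They could also lie in 1 other gate. Enterocyte markers summed to 60799 CPM in those of library 3, and goblet markers to 32314 CPM in those of library 4. The ones in libraries 2 and 3 had medians of 593 and 655 UMIs. Defa24 had 148869, 137513, 114519 and 205092 CPM in them, and Lyz1 45226, 46291, 33241 and 51137 CPM, both below the Paneth-gated level of the same library. Defa30 made up 28.4%, 29.9%, 33.6% and 32.1% of its sum with Defa24, close to the Paneth-gated cells. Adding these barcodes gave 152 cells and a summed level of 514818 CPM.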

How the data were processed

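Droplet libraries were made with the single cell 3′ v2 protocol, per the labels' protocols. The deposited values are UMI counts per gene and barcode for all 4 samples in 1 matrix, not normalized. Cell Ranger 6.1.1 and mm10 are named in the submitters' processing notes, and how barcodes were filtered was not given in the sources used here. The 6 members, the gene lists and the gates were chosen with earlier results of these data known. Cells were assigned to a class by summed marker UMIs per 10000 UMIs, and cells in more than 1 gate were kept apart. Levels are class sums in CPM with exact Poisson intervals, and shares have exact Clopper-Pearson intervals, at 95%. Detection at 2000 UMIs was computed from the hypergeometric distribution, with shallower cells left out. Each library is a pool, cells are not replicates, and no test was run. No doublets were removed. The text names the members, genes of a list of Paneth genes, and for each member the 5 genes with the highest r. The ranking was tested on simulated data. Python 3.11.15, numpy 2.4.6, scipy 1.17.1, pandas 2.3.3, scanpy 1.11.5 and leidenalg 0.10.2 were used. The planned test of diet with edgeR could not be run, since no file ties barcodes to samples.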

Additional observations from a re-analysis of the deposited data

Results flagged for a closer look

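Barcodes outside the comparisons also held the members. The 6464 barcodes left out for few UMIs or genes had 1739 CPM of the 6 members together, 824 to 3237 CPM by library. The 12025 left out for mitochondrial UMIs had 914 CPM, 624 to 1196 CPM by library. With no control samples these stand above the level of 3 counts, 0.165 and 0.0384 CPM.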

How the results depend on the processing

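No paired analysis was possible because no label ties the 4 libraries to samples, and for the same reason the alternatives of the diet comparison were not run. The number of Paneth-gated cells, 86, was 309 with Leiden clusters and 152 without a UMI minimum, and 79 to 98 otherwise. The barcodes added without a UMI minimum could also lie in 1 other gate. The goblet-gated cells with Defa24 and under 5% Defa30, 121, numbered 106 to 123. The Defa30 share of Defa24 and Defa30, goblet-gated minus Paneth-gated, was -14.7 points, and -23.1 with Leiden clusters, -14.2 without the highest Scrublet scores and -14.4 with other gates allowed. The 6 members' level in Paneth-gated cells was 516505 CPM. It was 542077 with a score limit of 40, 509569 with a limit of 10, 517668 with a gate on other alpha-defensins, 508270 with Leiden clusters, 521242 without the highest Scrublet scores, 503816 with other gates allowed, 514818 with no UMI minimum and 518186 without cells of under 10% alpha-defensin UMIs. With totals that leave out mitochondrial genes it was 529015, and with totals that leave out members and alpha-defensins 1836830, a ratio to the remaining UMIs. Their share of UMIs in Paneth-gated cells, 86.8%, was 87.1% at 1000 UMIs and 500 genes, 87.4% and 86.2% at 15% and 50% mitochondrial UMIs, 82.1% with the limit of 40, 92.1% with Leiden clusters, 87.5% without the highest Scrublet scores, 92.3% with other gates allowed and 87.1% with no UMI minimum. Their level in enterocyte-gated cells, 275 CPM, was 257, 266 and 304 under the same 3 cell filters, 357 and 265 with limits of 40 and 10, 268 with the alpha-defensin gate, 260.1 with Leiden clusters, 268 without the highest Scrublet scores and 311 without mitochondrial genes. Of these results the signed one, the difference of Defa30 shares, kept its sign. With alpha-defensins left out of the CPM total, a choice made after the data had been seen, the lowest and highest log2 differences of Paneth-gated over enterocyte-gated cells turned to 0.22 and 0.77 for Xbp1 and to 0.55 and 1.10 for Tcf4, and the highest to 0.97 for Dll1 and 0.89 for Reg3g, all below 0 with the full total. Of 1248 alternative values of single members by class and library, 54 moved by over 1.5 times. With 10 to 38 Paneth-gated cells a library, single cells weigh on each level, and the causes of these changes were not tested.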
